A study of Mus musculus with 11 samples.

Results

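The genes described here encode the nuclear subunits of the mitochondrial respiratory chain. They were chosen by symbol, as every gene on the array whose name begins with Ndufa, Ndufb, Ndufc, Ndufs, Ndufv, Uqcr, Atp5 or Cox4 to Cox8, together with Sdha, Sdhb, Sdhc and Sdhd. Ndufa4l2, the assembly factors and pseudogenes were left out. The rule found 84 of the 20145 named genes on the array, 37 in complex I, 4 in complex II, 8 in complex III, 18 in complex IV and 17 in complex V. The rule sorts by symbol, so Ndufa4 counts under complex I although it is now regarded as a complex IV subunit. Cyc1 of complex III is not a member, nor are the subunits encoded by mitochondrial DNA.

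RNA came from epithelial cells of mouse mammary outgrowths. Primary mammary cells were infected with a lentivirus for a hairpin to luciferase (shLUC, the control) or to Ror2, a Wnt receptor gene (shROR2), and were suspended in Matrigel for injection. Luminal and basal cells of the outgrowths were separated by FACS on CD24 and CD29, which gave luminal shLUC (3 arrays), luminal shROR2 (2 arrays; another sample of this group is not analysed here), basal shLUC (3 arrays) and basal shROR2 (3 arrays). All 4 groups thus share infection, growth as an outgrowth and sorting, and the controls carry a hairpin too. Strain, age and the number of pooled animals are not given in the sources used here, and the labels speak of biological triplicates without saying which samples came from the same outgrowth. The question of the study was what Ror2 does in each of the epithelial layers.

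The respiratory chain passes electrons from NADH (complex I) and succinate (complex II) through ubiquinone to complex III, then through cytochrome c to complex IV, where oxygen is reduced. Complexes I, III and IV pump protons across the inner mitochondrial membrane, and complex V, the ATP synthase, uses the return of these protons to make ATP. Most subunits are encoded in the nucleus, and nuclear respiratory factors such as NRF1 and GABPA are known regulators of many of these genes. The mammary epithelium has a luminal layer facing the duct, which includes hormone-sensing and milk-forming cells, and a basal layer of contractile myoepithelial cells.

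The arrays separated the compartments by their markers. Of 8 basal markers 7 were called higher in basal cells of both hairpin groups, and all 9 luminal markers were called lower there. The exception was Trp63, whose probe was bright in all groups and differed by 0.15 (log2) in shLUC and 0.23 in shROR2. Other cell types were not absent. The summed signal of fibroblast markers (6 of 7 tested) was 722 to 742 and 1251 to 1304 in luminal cells (shLUC, then shROR2) and 5570 to 6518 and 5400 to 7024 in basal cells. Ror2 itself was not well above background on any array except the one labelled basal shROR2 replicate 1, where its signal was 16.8 against 10.1 to 12.1 in basal shLUC and 3.03 and 6.93 on the other basal shROR2 arrays. In luminal cells it lay at 3.14 to 3.48 in shLUC and at 3.54 and 8.47 in shROR2, so these arrays do not show a knockdown at the RNA level. The share of probes well above background was 52.8% to 59.5%, and arrays of a group correlated at 0.941 to 0.953 in basal shROR2 and at 0.976 or more elsewhere.

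Promoter sequences of 69 of the 84 members were found in a RefSeq table for mouse build GRCm38.p6, each from 250 bases before to 50 bases after an annotated start. They were searched on both strands for the core letters of factors known from respiratory chain promoters, and each motif was counted separately whether or not it overlapped another. The NRF1 letters, GCGCA and GCGC with 1 base of any kind between them, were present in 17 of the 69 genes (24.6%), against 5.19% of all 27025 genes in the table. The GABPA letters CCGGAAGT were present in 5 members (7.25%, against 4.31% of all genes), the YY1 letters (AA, a base of any kind, then ATGG and CGGC in a row) in 4 (5.8% against 1.17%) and the ESRRA letters TCAAGGTCA in 2 (2.9% against 0.466%). Among members lower in basal than in luminal shROR2 cells, 7 of 30 (23.3%) held the NRF1 letters, and among members not called there 9 of 35 (25.7%) did. A match of letters is not a measured binding site, and no binding was measured here.

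Given here are the 100 bases before the start of the 6 members with values given later whose window holds the NRF1 letters. Sdha, Sdhd, Atp5c1 and Atp5g2 were lower in basal cells, Ndufa11 was higher there, and Ndufs6 had the smallest p among the members for the hairpin in basal cells. They lie at chr13:74350241-74350340 (Sdha), chr9:50603850-50603949 (Sdhd), chr2:10080433-10080532 (Atp5c1, the downstream one of 2 starts in the table), chr15:102671048-102671147 (Atp5g2), chr17:56717662-56717761 (Ndufa11) and chr13:73328483-73328582 (Ndufs6). Ndufa11 is read from the plus strand and the others from the minus strand, 5′ to 3′, with the matched letters in capitals.
Sdha: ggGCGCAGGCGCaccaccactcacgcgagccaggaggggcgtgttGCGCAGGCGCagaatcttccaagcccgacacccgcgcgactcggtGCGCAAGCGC
Sdhd: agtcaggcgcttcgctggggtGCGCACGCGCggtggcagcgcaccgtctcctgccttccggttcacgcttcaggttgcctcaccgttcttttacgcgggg
Atp5c1: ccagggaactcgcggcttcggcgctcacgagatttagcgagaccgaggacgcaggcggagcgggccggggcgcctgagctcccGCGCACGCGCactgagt
Atp5g2: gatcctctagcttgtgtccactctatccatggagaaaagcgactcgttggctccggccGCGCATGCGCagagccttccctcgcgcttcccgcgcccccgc
Ndufa11: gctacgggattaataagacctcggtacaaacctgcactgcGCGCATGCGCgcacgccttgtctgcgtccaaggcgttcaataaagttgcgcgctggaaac
Ndufs6: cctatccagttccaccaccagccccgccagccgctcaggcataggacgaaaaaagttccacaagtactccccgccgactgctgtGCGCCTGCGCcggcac
The Sdha window holds 3 matches and each of the others holds 1. Genes with these letters before their start were thus lower (Sdha) or higher (Ndufa11) in basal cells.

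Levels are on a log2 scale on which 0 is the 75th percentile of processed signals on that array, and they are compared between groups for a probe, never between probes. A difference was called when its limma p, adjusted over all 29429 features tested by Benjamini and Hochberg's method, was under 0.05. Errors of differences are standard errors (SE) from that fit. Of the 84 members, 81 passed the filter on dim probes, and 79 lay well above background on all 11 arrays. The 3 that did not pass were Cox7b2, Cox8b and Cox8c, isoforms of complex IV known from testis or from heart and muscle. Cox8b lay well above background on 1 array and the other 2 on none.

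In control outgrowths, 26 of 81 members differed between basal and luminal cells, 22 of them lower in basal cells and 4 higher. Over all features 26.9% were called, 13.8% higher and 13% lower, and among the brightest 7357 features, where 67 of the members lie, 35.5% were called, 18.4% higher and 17.2% lower. Among named genes alone 18.4% were higher and 15.5% lower. The share of members called (32.1%) is therefore near the background, and what differed from it was the direction, with 27.2% of members lower against 4.94% higher. The median difference of the members was -0.16 against -0.06 over all features, and 60 of the 81 lay below 0. Arrays of the groups did not overlap for 48 members, 9 of them higher in basal cells, against 52.2% of all features, 23.7% higher and 28.4% lower. The median level of the members was 3.47, 3.63 and 3.52 on the luminal shLUC arrays and 3.37, 3.34 and 3.44 on the basal shLUC arrays, which do not overlap. In such bulk samples, fewer cells of a type and less RNA per cell cannot be told apart.

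The count in control outgrowths depended on single arrays and on the scaling. Without any single shLUC array it fell to between 10 (without basal shLUC replicate 3) and 15 (without luminal shLUC replicate 1, or basal shLUC replicate 1), with 13, 12 and 14 without luminal shLUC replicate 2, luminal shLUC replicate 3 and basal shLUC replicate 2. These are 12.3% to 18.5% of the members, below the 19.8% to 20.9% of all features called in the same fits. With each array scaled to its cytosolic ribosomal protein genes, 19 members were called, 14 lower and 5 higher (23.5%, against 25.2% of all features). Other processing raised the count. It was 37 in the authors' deposited table (45.7%, against 31.3% of all features) and 30 with normexp on the median signal (37%, against 29.8%).

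**Figure D1:**
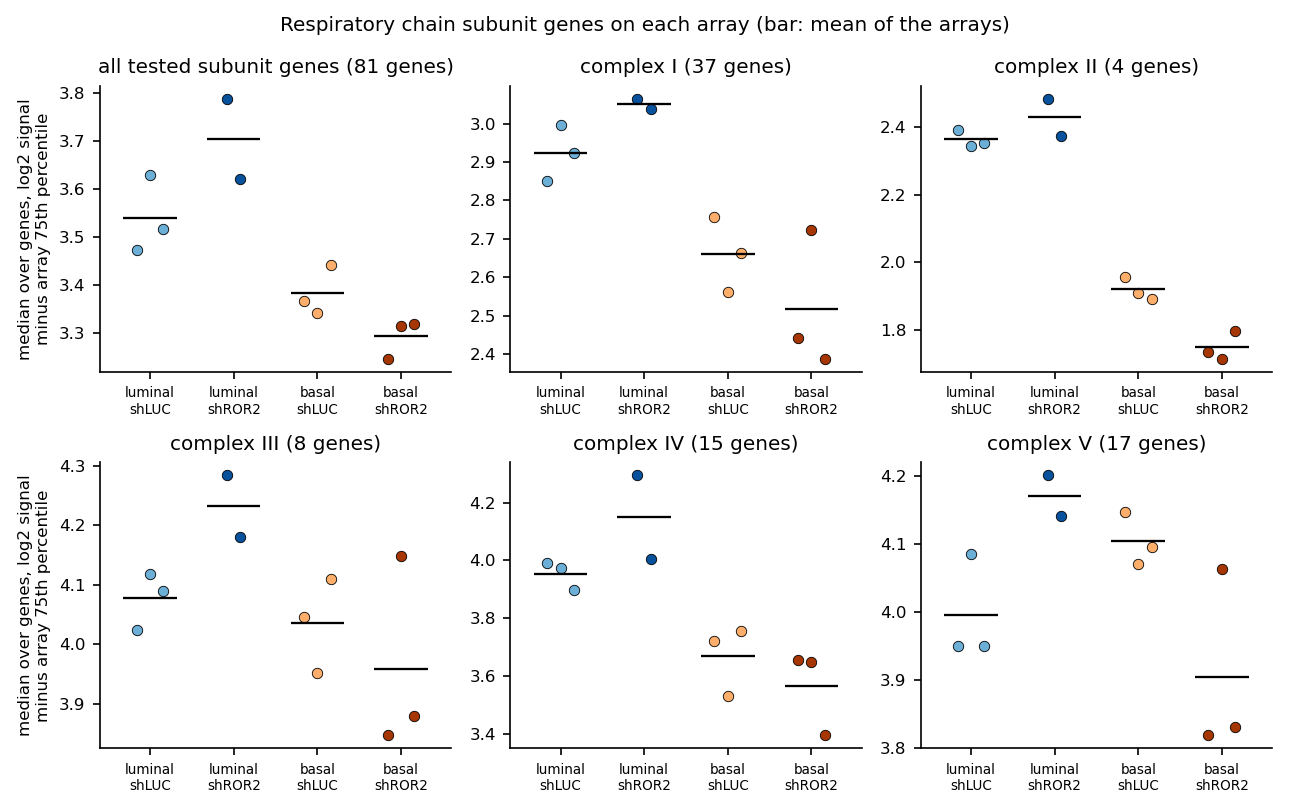
Median level over the tested subunit genes on each array, for all of them and for each complex, as log2 signal minus the array's 75th percentile. With points for arrays, bars for group means and a separate vertical scale in each panel, for all members the luminal arrays lie between 3.47 and 3.79 and the basal arrays between 3.25 and 3.44.

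Complex I, the NADH dehydrogenase, holds 37 of the 81 tested members. Of these 13 (35.1%) were lower in basal cells and 2 (5.41%) higher, against 13% and 13.8% of all features. Of its 30 supernumerary subunits, the small proteins around the catalytic core, 12 (40%) were lower and 2 (6.67%) higher. Of the 7 core subunits encoded in the nucleus 1 (14.3%) was lower, Ndufv2. Ndufa7, a supernumerary subunit of the arm that protrudes into the matrix, lay at 4.06, 4.17 and 4.09 on the luminal shLUC arrays and at 3.41, 3.30 and 3.24 on the basal shLUC arrays. All luminal arrays were above all basal ones, a difference of -0.79 ± 0.13 (1.73-fold lower in basal cells, adjusted p = 0.00241). Ndufv3, a small subunit beside the site of NADH oxidation, lay at 1.80, 1.90 and 1.84 in luminal and at 1.07, 1.17 and 1.14 in basal cells. The groups did not overlap and differed by -0.72 ± 0.10 (adjusted p = 0.000862). A second Ndufv3 probe for the same transcript record differed by only -0.15 ± 0.12 (adjusted p = 0.386), so its level depends on the probe, and the mean of both probes differed by -0.43. Of the 22 members with several probes, probes pointed in opposite directions for 3 in shLUC (Atp5k, Atp5l and Ndufb6) and for 5 in shROR2 (Cox7a2l, Ndufb11, Ndufb6, Sdhb and Sdhc), with no probe of these called in that comparison.

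Ndufa6, a subunit of the LYR protein family that binds the mitochondrial acyl carrier protein, lay at 0.96, 1.00 and 1.02 in luminal and at 0.27, 0.20 and 0.37 in basal control cells. The difference was -0.71 ± 0.21 (adjusted p = 0.0378), and the call was lost without any single one of the 6 shLUC arrays (adjusted p up to 0.104). Its partner Ndufab1, the acyl carrier protein, was dim and scattered over more than 3 log2 units among the basal arrays, from -5.48 to -1.35, and gave no usable comparison (-0.97 ± 0.88). Ndufb6 was the complex I member nearest to 0. It lay at 3.47, 3.43 and 3.50 in luminal and at 3.44, 3.48 and 3.47 in basal cells, which overlap.

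Ndufa11, a membrane arm subunit of complex I, went the other way and had the smallest p of all members. It lay at 3.69, 3.63 and 3.71 on the luminal shLUC arrays and at 4.75, 4.81 and 4.82 on the basal shLUC arrays. The groups lay far apart, a 2.17-fold higher level in basal cells (1.11 ± 0.13, adjusted p = 0.000219), and the difference was called under each of the 23 alternatives run. The other complex I member higher in basal cells was Ndufa1, a small membrane subunit named after its value was seen, with a difference of 0.43 ± 0.11 (adjusted p = 0.0153). That call was lost without luminal shLUC replicate 1, basal shLUC replicate 1 or basal shLUC replicate 3 (adjusted p up to 0.061).

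Complex II, succinate dehydrogenase, links the chain to the citric acid cycle, and its 4 subunits divided. Sdha, the flavoprotein that oxidizes succinate, lay at 2.92, 3.00 and 2.88 in luminal and at 2.50, 2.44 and 2.45 in basal control cells. Its groups did not overlap and differed by -0.47 ± 0.11 (adjusted p = 0.0122), a call that no left-out array removed. Sdhd, a membrane anchor, lay at 1.86, 1.69 and 1.84 in luminal and at 1.41, 1.38 and 1.34 in basal cells. It too was lower without overlap (-0.42 ± 0.11, adjusted p = 0.0219), but leaving out any shLUC array other than luminal replicate 2 took the call away (adjusted p up to 0.08). Sdhb, the iron-sulphur subunit, and Sdhc, the other anchor, differed by 0.19 ± 0.18 and 0.27 ± 0.16, with overlapping arrays (adjusted p = 0.474 and 0.26).

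Complex III had 1 member lower and 1 higher of 8 (12.5% each), near the 13% and 13.8% of all features. Uqcrfs1, the Rieske iron-sulphur protein that hands electrons from ubiquinol to cytochrome c1, lay at 3.03, 3.23 and 3.11 in luminal and at 2.48, 2.48 and 2.65 in basal shLUC cells. The groups did not overlap (-0.58 ± 0.12, adjusted p = 0.00659), and the call held without any single array. Uqcrq, a small subunit of the complex, lay at 3.72, 3.92 and 3.92 in luminal and at 4.23, 4.17 and 4.30 in basal cells. All basal arrays were higher (0.38 ± 0.12, adjusted p = 0.0415), and a second probe was called in the same direction (0.57 ± 0.15, adjusted p = 0.0192). The call on the first probe was lost without any single shLUC or luminal shROR2 array (adjusted p up to 0.144).

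Complex IV, cytochrome c oxidase, is the part of the chain with the most tissue-specific isoforms, and its largest differences lay in these. Of its 15 tested members 4 (26.7%) were lower and 1 (6.67%) was higher in basal cells, against 13% and 13.8% of all features. Cox7a1, the isoform best known from heart, skeletal muscle and brown fat, lay at 0.46, 0.91 and 0.91 in luminal and at -0.81, -0.20 and -0.28 in basal shLUC cells. This was the largest difference downward of a called member, 2.28-fold lower in basal cells (-1.19 ± 0.20, adjusted p = 0.00219), and no array removed the call. The size depended on the background correction, with -0.69 in the authors' deposited table and -0.73 with normexp on the median signal. Its widespread counterpart Cox7a2 lay at 4.31, 4.55 and 4.43 in luminal and at 4.13, 4.03 and 4.06 in basal cells. The groups did not overlap (-0.36 ± 0.11, adjusted p = 0.0392), but the call was lost without any of the shLUC arrays other than luminal replicate 1, and without either luminal shROR2 array (adjusted p up to 0.134).

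Cox6b2, an isoform known from testis, was the complex IV member higher in basal cells. It lay at 0.45, 0.79 and 1.00 in luminal and at 1.97, 1.53 and 2.30 in basal shLUC cells, without overlap and 2.27-fold higher (1.18 ± 0.26, adjusted p = 0.00848). Its widespread counterpart Cox6b1 pointed the other way (-0.32 ± 0.13, adjusted p = 0.101). Cox4i1, the widespread form of the largest nuclear subunit, was lower by -0.34 ± 0.10 (adjusted p = 0.0357, lost without any single shLUC array, up to 0.104), while Cox4i2, the form known from lung and from low oxygen, overlapped between the groups (0.23 ± 0.34, adjusted p = 0.663). Cox7c, a small core-associated subunit, lay at 5.55, 5.59 and 5.61 in luminal and at 5.23, 5.17 and 5.23 in basal cells. The arrays did not overlap (-0.37 ± 0.10, adjusted p = 0.0235), but the call was lost without any single shLUC array (adjusted p up to 0.0745). It also depended on the probe, since 2 dimmer Cox7c probes differed by -0.26 ± 0.17 and -0.0021 ± 0.19 (adjusted p = 0.304 and 0.995) and the mean of the probes by -0.21 (adjusted p = 0.3).

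Among the remaining complex IV isoforms none was called in control cells. Cox6a1, the widespread form, and Cox8a differed by -0.19 ± 0.10 and -0.32 ± 0.13 (adjusted p = 0.201 and 0.094). Cox6a2, the muscle form, was well above background on 7 of the 11 arrays and differed by -0.13 ± 0.19. Cox7a2l, which joins complexes III and IV into supercomplexes, gave -0.32 ± 0.11 on the probe used (adjusted p = 0.0555) and -0.32 ± 0.10 on a dimmer probe that was called (adjusted p = 0.0417). Cox7b was the complex IV member nearest to 0, at 3.68, 3.77 and 3.67 in luminal and 3.68, 3.53 and 3.75 in basal cells.

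In complex V 2 of 17 members (11.8%) were lower in basal control cells, near the 13% of all features. None was higher, against 13.8% of all features. Atp5g2 is one of 3 genes for the c subunit, the proton-carrying ring of the rotor. It lay at 6.28, 6.36 and 6.39 in luminal and at 5.95, 5.74 and 5.94 in basal shLUC cells. The groups did not overlap (-0.47 ± 0.10, adjusted p = 0.00965), and the call held without any single array. The other c subunit genes did not follow it to a call: Atp5g1 differed by -0.18 ± 0.13 and Atp5g3 by 0.20 ± 0.13, both with overlapping arrays. Atp5c1, the gamma subunit of the central stalk, was lower by -0.47 ± 0.15 (adjusted p = 0.0485), a call lost without any single shLUC or luminal shROR2 array (adjusted p up to 0.146). A dimmer Atp5c1 probe differed by -0.11 ± 0.16 (adjusted p = 0.645), and the mean of both probes by -0.29 (adjusted p = 0.129). Atp5md, a small membrane subunit, lay nearest to 0 at 4.20, 4.13 and 4.22 in luminal and 4.20, 4.07 and 4.25 in basal cells.

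**Figure D2:**
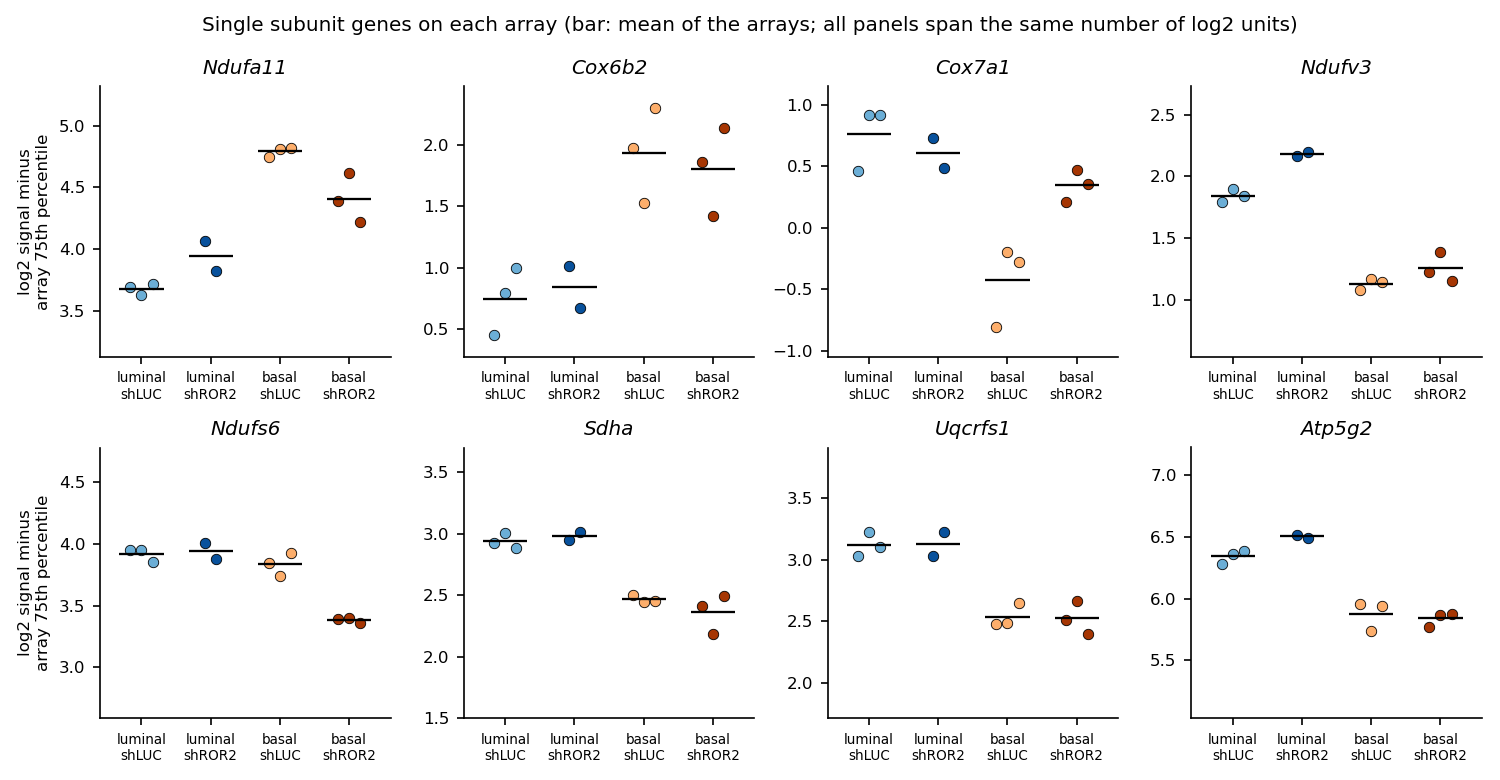
Level of 8 subunit genes on each array, as log2 signal minus the array's 75th percentile, with points for arrays and bars for the mean of a group. Ndufa11 and Cox6b2 are higher in basal cells, Ndufv3, Sdha, Uqcrfs1 and Atp5g2 are lower there in both hairpin groups, Cox7a1 is lower mainly in basal shLUC (-0.81 to -0.20), and Ndufs6 is lowest in basal shROR2 (3.36 to 3.40).

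In outgrowths with the Ror2 hairpin, 36 of 81 members differed between basal and luminal cells, 34 lower in basal cells and 2 higher. Over all features 22.9% were called in this comparison, 10.6% higher and 12.3% lower, and 28% among the brightest features, 12.9% higher and 15.1% lower. Among named genes 14.6% were higher and 15.7% lower. In the fit on all arrays the share of members called (44.4%) and the share lower (42%) were above the background. The median difference was -0.41 against -0.08 over all features, and 73 of 81 members lay below 0. Arrays did not overlap for 64 members, 3 of them higher in basal cells, against 45.6% of all features, 19.7% higher and 26% lower. The count rests in part on the 2 luminal shROR2 arrays. It was 14 (17.3%) without replicate 1 and 22 (27.2%) without replicate 2, where 12.8% and 13.5% of all features were called. The authors' deposited table gave 49 (60.5%, against 26% of all features). A fit on the 5 shROR2 arrays alone, without the spread of the control arrays, called 2 members (2.47%) against 9.59% of all features. In that fit the share of members was thus below the background.

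By complex, the members lower in basal shROR2 cells were 17 of 37 in complex I (45.9%) and 2 of 4 in complex II (50%). They were 3 of 8 in complex III (37.5%), 6 of 15 in complex IV (40%) and 6 of 17 in complex V (35.3%). Over all features 12.3% were lower, and 15.1% among the brightest. The 2 members that were higher were again Ndufa11 (0.47 ± 0.14, adjusted p = 0.0429) and Cox6b2 (0.96 ± 0.29, adjusted p = 0.04). The Ndufa11 call was lost without any single array other than basal shROR2 replicate 3 (adjusted p up to 0.265). The Cox6b2 call was lost without either luminal shROR2 array and without 5 other arrays (luminal shLUC replicates 2 and 3, basal shLUC replicate 1, and basal shROR2 replicates 1 and 3), with adjusted p up to 0.223. Of the members called, 21 were called in both hairpin groups, 80.8% of those called in shLUC and 58.3% of those called in shROR2, and all 21 in the same direction. This overlap was not counted over all features, so it cannot be read as particular to the members. The comparisons share no arrays, although the fit pools their spread.

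**Figure D3:**
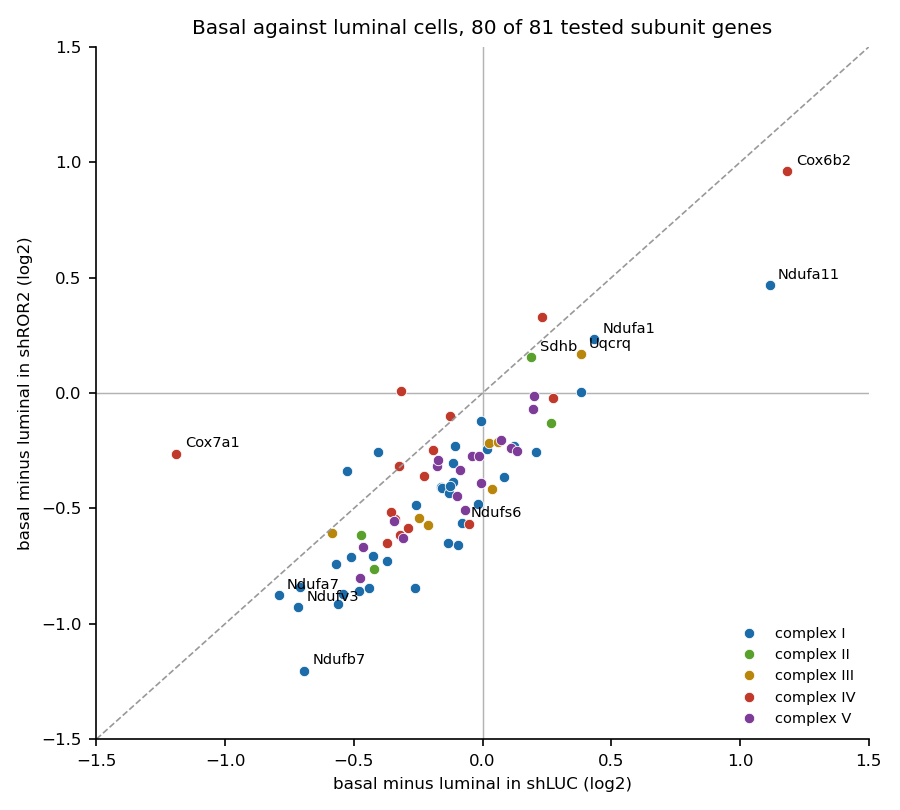
Difference between basal and luminal cells (log2) in shLUC (horizontal) and in shROR2 (vertical) for the tested subunit genes, coloured by complex, with a dashed line at equal differences and without Ndufab1, the gene with the largest error. Most genes lie below the dashed line and below 0, with Cox6b2 and Ndufa11 at the upper right and Cox7a1 alone at the left.

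The members with the smallest p were complex I genes. Ndufv3 lay at 2.16 and 2.20 on the luminal shROR2 arrays and at 1.23, 1.38 and 1.15 on the basal ones, without overlap (-0.93 ± 0.11, adjusted p = 0.000463), while its second probe differed by -0.10 ± 0.13. Ndufa13 (GRIM-19), a supernumerary subunit also known from studies of cell death, lay at 5.54 and 5.46 in luminal and 4.85, 4.77 and 4.66 in basal cells. It was 1.67-fold lower in basal cells (-0.74 ± 0.11, adjusted p = 0.00125). Ndufv2, a core subunit with an iron-sulphur cluster, lay at 2.55 and 2.64 in luminal and 1.84, 1.81 and 1.60 in basal cells (-0.85 ± 0.13, adjusted p = 0.00149). Ndufc2, a small membrane arm subunit, lay at 4.85 and 4.74 in luminal and 3.86, 3.78 and 4.12 in basal cells (-0.87 ± 0.14, adjusted p = 0.00181). These 4 genes were lower on every basal array than on any luminal array, and each of the calls held without any single array. Of these only the Ndufv3 call held in the fit on the shROR2 arrays alone (adjusted p 0.0525 to 0.065 for the others).

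Other subunits repeated their direction from the control outgrowths. Sdha differed by -0.62 ± 0.12 (adjusted p = 0.00661) and Sdhd by -0.76 ± 0.13 (adjusted p = 0.00237), and only the Sdha call was lost in a fit without 1 array (luminal shROR2 replicate 2, adjusted p = 0.0557). Atp5g2 differed by -0.67 ± 0.12 (adjusted p = 0.00317). Cox4i1 (-0.55 ± 0.11, adjusted p = 0.00814), Cox6b1 (-0.61 ± 0.14, adjusted p = 0.0143) and Cox7a2 (-0.51 ± 0.12, adjusted p = 0.0149) were lower, and their calls were lost without luminal shROR2 replicate 1 (adjusted p 0.089, 0.135 and up to 0.1), the Cox7a2 call also without replicate 2. Cox7b, not called in shLUC, was lower here (-0.57 ± 0.16, adjusted p = 0.034), a call lost without any of 8 single arrays (adjusted p up to 0.194).

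Markers of other cell types moved with the compartments as well. In shROR2 the summed signal of endothelial markers (6 of 6 tested) was 1584 to 1624 in luminal and 4102 to 5110 in basal cells, that of adipocyte markers (3 of 5 tested) 1339 to 1488 and 5056 to 6290, and that of leukocyte markers (7 of 7) 12307 to 13245 and 10064 to 10961. In shLUC the corresponding ranges were 1250 to 1359 and 2551 to 2829 for endothelial, 656 to 824 and 2708 to 2978 for adipocyte, and 9726 to 9969 and 6873 to 8053 for leukocyte markers. Only 1 of the 3 tested adipocyte markers was called higher in basal cells, in either hairpin group. Their median level was low, -2.13 to -1.27 in basal shROR2, so the adipocyte sum rests mostly on the brightest of them. The part of all these markers in the differences of the subunit genes was not tested.

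In luminal cells the Ror2 hairpin left no member called, and 5 of 81 (6.17%) had an unadjusted p under 0.05, near the 5.55% of all features that did. Over all features 1 was called (0.0034%), so the comparison of 2 with 3 arrays called almost nothing. The members leaned upward all the same. The median difference was 0.12 against 0.00 over all features, 71 of 81 lay above 0, and arrays did not overlap for 39 members, 38 of them higher with shROR2, against 29% of all features, 14.8% higher and 14.2% lower. The median level on the luminal shROR2 arrays was 3.79 (replicate 1) and 3.62 (replicate 2), the latter inside the range of luminal shLUC (3.47 to 3.63). Without replicate 1 the median difference was 0.10, with 59 members above 0, and without replicate 2 it was 0.19, with 73 above 0. With arrays scaled to the cytosolic ribosomal protein genes it was 0.06, against -0.05 over all features. This scaling moves all features of an array alike, so the distance between the members and the other features cannot change.

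The members with the smallest p in luminal cells were Atp5o, Ndufv3, Ndufs4 and Ndufa13, and none passed the adjusted threshold. Atp5o (OSCP), which joins the stator of the ATP synthase to its catalytic head, lay at 0.92, 1.01 and 1.09 in shLUC and at 1.40 and 1.47 in shROR2 (0.43 ± 0.14, adjusted p = 0.7). Ndufs4, a subunit of the matrix arm known from Leigh syndrome, lay at 2.85, 3.00 and 2.92 in shLUC and at 3.41 and 3.21 in shROR2 (0.39 ± 0.15, adjusted p = 0.83). Ndufv3 (0.34 ± 0.11) and Ndufa13 (0.26 ± 0.11) also had both shROR2 arrays above all shLUC arrays, with adjusted p of 0.74 and 0.841.

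In basal cells the hairpin again left no member called, and 10 of 81 (12.3%) had an unadjusted p under 0.05, below the 15.8% of all features that did, while 0.948% of all features were called, 0.374% higher and 0.574% lower. The members leaned downward here, with a median difference of -0.13 against -0.05 over all features and 62 of 81 below 0. Arrays did not overlap for 22 members, 20 of them lower and 2 higher with shROR2, against 18.5% of all features, 11.8% lower and 6.69% higher. The median level was 3.37, 3.34 and 3.44 on the basal shLUC arrays and 3.25, 3.31 and 3.32 on the basal shROR2 arrays, which do not overlap. Without the array labelled basal shROR2 replicate 1, the one with the highest Ror2 signal, the median difference was -0.14 and again no member was called, while 2.98% of all features were. With arrays scaled to their median in place of the 75th percentile, the median difference was -0.06, against 0.03 over all features. Such a scaling moves all features of an array alike, so it cannot change the distance between the members and the other features.

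Ndufs6, a zinc-binding subunit needed late in complex I assembly, had the smallest p in basal cells. It lay at 3.84, 3.74 and 3.93 with shLUC and at 3.39, 3.40 and 3.36 with shROR2, a clear gap between groups that each varied little (-0.46 ± 0.10), but the adjusted p was 0.078. It was called when only probes well above background on all 11 arrays were tested (adjusted p = 0.0415), in the authors' deposited table (-0.45, adjusted p = 0.0109) and with normexp on the median signal (-0.50, adjusted p = 0.00856). Ndufa4, the cytochrome oxidase subunit with a complex I name, lay at 4.49, 4.52 and 4.51 with shLUC and at 4.11, 4.04 and 4.24 with shROR2 (-0.38 ± 0.10, adjusted p = 0.14, and 0.0498 with normexp). Atp5pb, subunit b of the peripheral stalk of the ATP synthase, lay at 2.19, 2.17 and 2.16 with shLUC and at 1.64, 1.81 and 1.84 with shROR2 (-0.41 ± 0.12, adjusted p = 0.157). For each of these genes all shROR2 arrays lay below all shLUC arrays, as they did for 20 members in all.

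Cox7a1 pointed the other way in basal cells. It lay at -0.81, -0.20 and -0.28 with shLUC and at 0.21, 0.47 and 0.36 with shROR2. The groups did not overlap, and the level with shROR2 was 1.71-fold higher (0.77 ± 0.20), with an adjusted p of 0.114, and the difference was 0.42 in the authors' deposited table and 0.45 with normexp. In luminal cells it lay at 0.46, 0.91 and 0.91 with shLUC and at 0.73 and 0.48 with shROR2, which overlap. The difference between basal and luminal cells was accordingly -1.19 ± 0.20 in shLUC and -0.26 ± 0.22 in shROR2 (adjusted p = 0.449). Of the lists of tissues known for Cox7a1, 4 of 7 striated muscle markers were tested. The summed signal of the whole list was 1600 to 1838 in basal shLUC and 1228 to 1462 in basal shROR2. The 4 tested markers had low median levels, -1.72 to -1.44 and -1.74 to -1.30, so the sum rests mostly on the brighter ones. Only 1 of the 4 was called higher in basal than in luminal cells. Brown adipocyte markers had 1 of 3 tested, Cidea, at a level of -0.66 to -0.0015 in basal shLUC and -0.56 to -0.35 in basal shROR2. Ucp1 and Elovl3 of that list did not pass the filter. White adipocyte markers gave a sum of 2708 to 2978 in basal shLUC and 5056 to 6290 in basal shROR2. Fabp4, known from adipocytes and capillary endothelium, was the one called (1.02 ± 0.14 with the hairpin, adjusted p = 0.0215). Their part in the values of Cox7a1 was not tested.

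**Figure D4:**
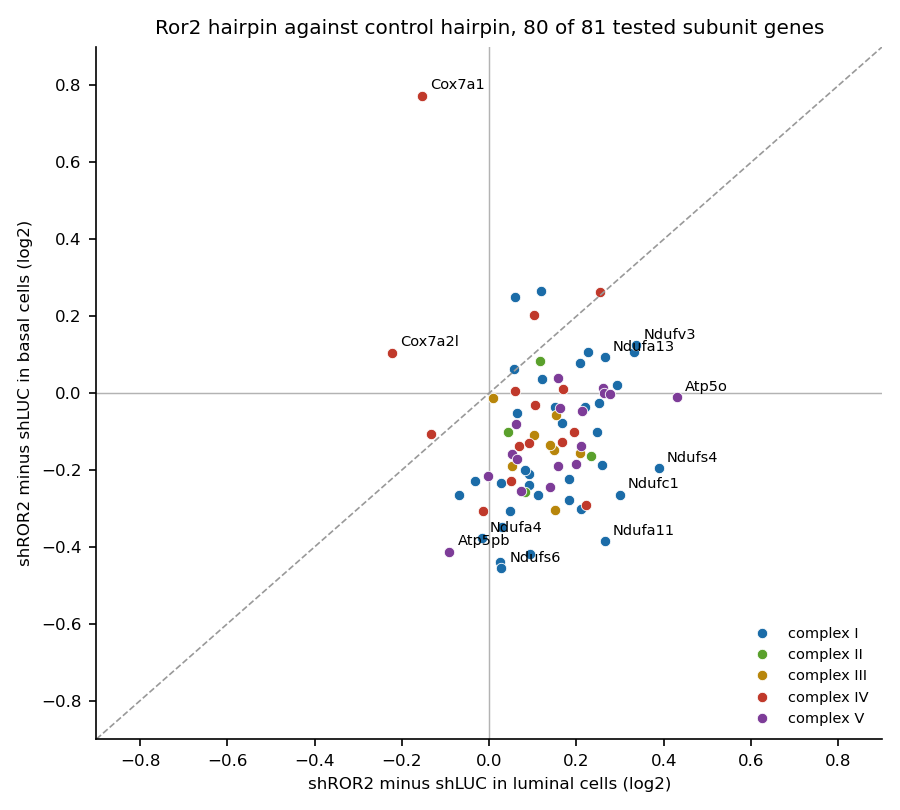
Difference between shROR2 and shLUC (log2) in luminal cells (horizontal) and in basal cells (vertical) for the tested subunit genes, coloured by complex, with a dashed line at equal differences and without Ndufab1. Most genes lie to the right of 0 and below 0, and Cox7a1 lies apart at the upper left, with -0.15 in luminal and 0.77 in basal cells.

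The difference of the hairpin effect between the compartments was tested directly as an interaction, and no member was called. Over all features 0% were called, and 11 members (13.6%) had an unadjusted p under 0.05, against 8.3% of all features. The estimate was below 0 for 73 of 81 members, with a median of -0.26 against -0.05 over all features. Ndufa11 had the smallest p. It lay at 3.69, 3.63 and 3.71 with shLUC and at 4.06 and 3.82 with shROR2 in luminal cells, and at 4.75, 4.81 and 4.82 with shLUC and 4.39, 4.61 and 4.22 with shROR2 in basal cells, without overlap in either compartment (interaction -0.65 ± 0.19, adjusted p = 0.436). Such a separation in opposite directions was seen in 6 of the 81 members (7.41%) and in 1.99% of all features. The gap between basal and luminal cells was 1.11 ± 0.13 in shLUC and 0.47 ± 0.14 in shROR2. Ndufc1, a small membrane arm subunit, gave -0.56 ± 0.17 and Ndufs6 -0.48 ± 0.15 (adjusted p = 0.456 for both), and Cox7a1 gave 0.93 ± 0.30 (adjusted p = 0.479).

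Marker transcripts of other cell types differed in summed signal between the hairpin groups too. In basal cells the summed endothelial signal was 2551 to 2829 with shLUC and 4102 to 5110 with shROR2, with 2 of 6 markers called higher, and leukocyte markers gave 6873 to 8053 and 10064 to 10961, with 2 of 7 called higher. The median level of luminal markers in basal cells was 0.29 to 0.85 with shLUC and 1.26 to 2.24 with shROR2, although none of the 9 was called and their summed signal overlapped (6842 to 7955 and 7751 to 10403). In luminal cells fibroblast markers gave 722 to 742 and 1251 to 1304 and leukocyte markers 9726 to 9969 and 12307 to 13245, with none of these markers called. Apart from that sum, these ranges do not overlap, and their part in the shifts of the subunit genes was not tested.

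The arrays lay on 2 slides, each with 1 or 2 arrays of every group, slide 2 with 1 array each of basal shLUC and basal shROR2. The median difference between basal and luminal cells was -0.12 and -0.30 within slides 1 and 2 in shLUC (-0.17 with the slide as a block) and -0.51 and -0.31 in shROR2 (-0.40). For the hairpin it was 0.21 and 0.06 in luminal cells (0.13 as a block) and -0.17 and -0.02 in basal cells (-0.13), where 40 of the 81 members lay above 0 on slide 2. The downward lean of the members with the hairpin in basal cells was thus seen on slide 1, and the single pair of arrays on slide 2 is too few to tell whether it was absent there. The interaction had a median of -0.40 and -0.10 (-0.27 as a block). In basal cells Cox7a1 differed by 0.83 and 0.67 on slides 1 and 2, and Ndufs6 by -0.51 and -0.34.

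Other genes of the mitochondrial energy system were counted in the same way. Of 47 tested assembly factors, which build the complexes without being part of them, 8 (17%) were lower and 5 (10.6%) higher in basal shLUC cells, close to the 13% and 13.8% of all features. In basal shROR2 cells 13 (27.7%) were lower and 2 (4.26%) higher, against 12.3% and 10.6% of all features. Uqcc3, an assembly factor of complex III, was lower by -1.15 ± 0.14 in shLUC (adjusted p = 0.000342), and Tmem70, needed for the ATP synthase, was higher by 0.98 ± 0.16 (adjusted p = 0.00169). Ndufaf4, an assembly factor of complex I, was higher by 1.19 ± 0.19 (adjusted p = 0.00186). Tmem70 was also the only assembly factor called for the hairpin, lower (-0.90 ± 0.16, adjusted p = 0.0406) in basal shROR2 than in basal shLUC cells. 

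Proteins that feed or serve the chain were mixed in direction. Of 13 electron carriers and transport genes 3 (23.1%) were lower and 2 (15.4%) higher in basal shLUC cells, against 13% and 13.8% of all features. In shROR2 4 (30.8%) were lower and 1 (7.69%) higher, against 12.3% and 10.6%. With so few genes these shares are imprecise. Slc25a4, the ADP/ATP carrier typical of muscle and heart, was higher in basal cells by 1.38 ± 0.11 in shLUC (adjusted p = 2.15e-05) and 0.89 ± 0.12 in shROR2 (adjusted p = 0.000852). Etfa and Etfb, the electron transfer flavoprotein of fatty acid oxidation, were lower in both, by -0.77 ± 0.12 and -0.57 ± 0.10 in shLUC (adjusted p = 0.00146 and 0.00383). Cyc1, the cytochrome c1 of complex III that the rule leaves out, was lower in basal shROR2 cells (-0.53 ± 0.10, adjusted p = 0.0053). Of 19 citric acid cycle genes 2 (10.5%) were lower and 2 higher in shLUC, no more than among all features. In shROR2 5 (26.3%) were lower, against 12.3% of all features, among them Fh1, fumarase (-0.75 ± 0.14, adjusted p = 0.0051).

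Regulators of mitochondrial biogenesis had 4 of 20 tested members lower in basal shLUC cells and 3 in shROR2, with none higher. These are 20% and 15%, against 13% and 12.3% of all features and 15.5% and 15.7% of named genes that were lower. Higher in basal cells were 13.8% and 10.6% of all features. With 20 genes such shares are imprecise. Esrrg and Esrrb, orphan nuclear receptors related to the known regulator of respiratory genes ESRRA, were well above background on all 3 luminal shLUC arrays and on none of the basal shLUC arrays. Taking the background limit of each array as the level in basal cells, Esrrg was at least 4.87-fold and Esrrb at least 3.24-fold lower there (adjusted p = 0.000331 and 0.00332). In shROR2, Esrrb was at least 3.38-fold lower (adjusted p = 0.0075). Ssbp1, which binds single-stranded mitochondrial DNA, had the smallest p of this list there (-0.99 ± 0.12, adjusted p = 4e-04).

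The ribosomes gave a contrast within the arrays. Of 77 mitochondrial ribosomal protein genes, 12 (15.6%) were lower and 4 (5.19%) higher in basal shLUC cells (median -0.20). The share lower is near the 13% of all features, of which 13.8% were higher. Basal shROR2 cells had 20 (26%) lower and none higher (median -0.46), against 12.3% and 10.6% of all features. Both medians are close to those of the subunits. Of 78 cytosolic ribosomal protein genes, 2 (2.56%) were lower and 1 (1.28%) higher in shLUC (median -0.02). In shROR2, 2 were lower and 2 higher (2.56% each, median -0.03). These shares are below those of all features. With the hairpin the cytosolic ribosomal protein genes had medians of 0.06 in luminal and 0.05 in basal cells, and the mitochondrial ones 0.09 and -0.11. Mrpl32 was the mitochondrial ribosomal gene called lower with the hairpin in basal cells (-0.72 ± 0.12, adjusted p = 0.0378).

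**Figure D5:**
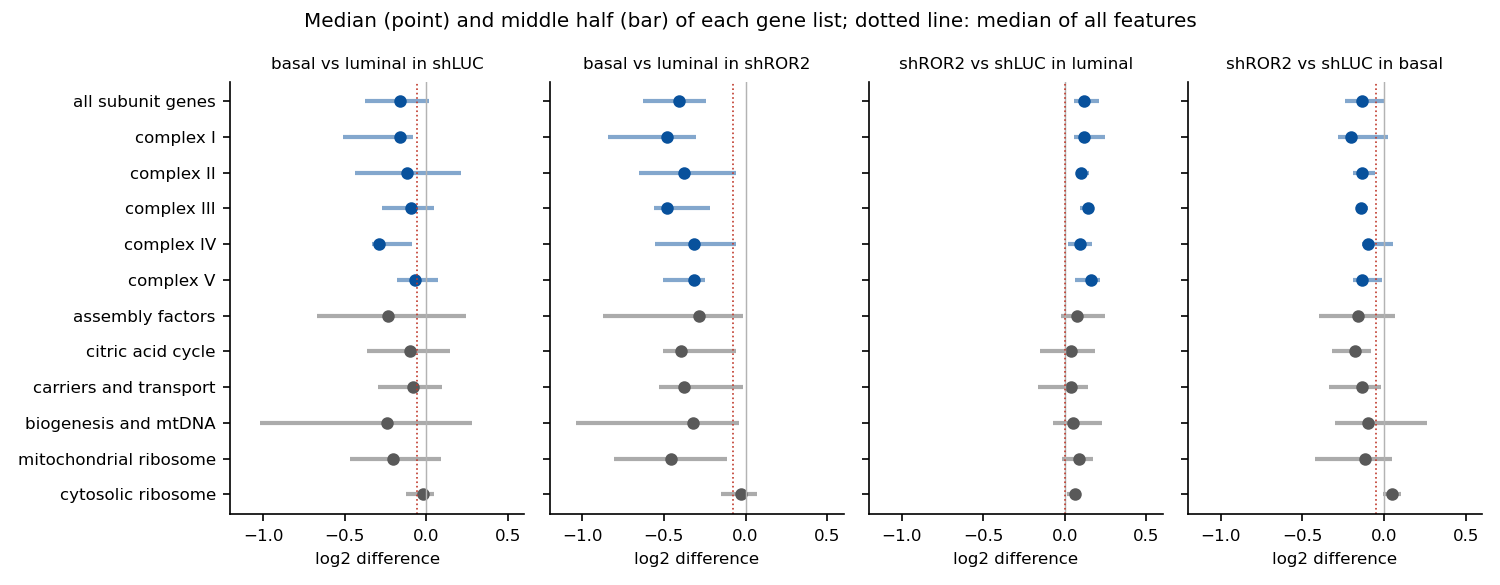
Median log2 difference (points) and the middle 50% of genes (bars) for the subunit genes, each complex (blue) and the other gene lists (grey), in 4 comparisons, with the dotted line at the median of all features. Between basal and luminal shROR2 cells the subunit genes (-0.41) and the mitochondrial ribosome (-0.46) lie to the left of the dotted line, and the cytosolic ribosome (-0.03) lies near 0.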

How the data were processed

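Single-colour Agilent arrays of 11 samples were analysed. The processed intensity values come from Agilent's Feature Extraction software, version 11.0.1.1, per the file headers, which made them by subtracting background and detrending within each array, and the raw median intensity stands in the same deposited files. The authors' deposited table holds intensity values normalized in a way not given in the sources used here, and it served as an alternative. Each array held 62976 spots, and 110 to 163 outlier spots per array were left out. Spots of a probe were averaged (55681 probes), and RefSeq accessions named 26582 of them through RefSeq's list for GRCm38.p6, with 29099 unnamed. Tested were log2 processed intensity minus the 75th percentile, for probes well above background on at least 3 arrays, with the brightest probe for each gene. Groups came from the labels, and limma 3.58.1, run in R 4.3.3, fitted 4 group means to all arrays, p values being 2-sided. Plots used Python 3.11.15 and matplotlib 3.10.9. The fit was tested on simulated data.

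The members and gene lists were chosen with earlier results of these data known. Named with values are, per complex, up to 4 called members with the largest differences between basal and luminal shLUC cells and the ones nearest to 0 in complexes I, IV and V, up to 4 members with the smallest p in each other comparison, the Sdh genes, the isoforms, members with probes of opposite sign of which at least 1 was called (there were none), and from each list at most 4 genes by smallest p. Members called higher in basal cells are named in addition, after their values were seen. Where nothing says that samples came from separate animals, p-values measure the spread between these samples, which may be technical. The number of arrays limits the precision. Same-numbered samples of different groups deviated with correlations of -0.04 to 0.04 over 15 pairs, so the numbers were not used as pairs. These correlations cannot tell whether some samples share an outgrowth.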

Additional observations from a re-analysis of the deposited data

Results flagged for a closer look

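In 6 of the 81 tested members (7.41%), every shROR2 array lay above every shLUC array in luminal cells and below every shLUC array in basal cells. Over all features, 587 of 29429 (1.99%) separated in opposite directions, a count that takes in both this orientation and the reverse. The hairpin effect in basal minus that in luminal cells was -0.65 for Ndufa11, -0.56 for Ndufc1, -0.51 for Ndufv1, -0.41 for Ndufv2, -0.38 for Atp5b and -0.29 for Cox5a (log2). Ndufv1 and Ndufv2 encode core subunits that take electrons from NADH, Atp5b the catalytic subunit of the ATP synthase, and Cox5a a nuclear subunit of cytochrome oxidase. The interaction test passed the adjusted threshold for none of the 6.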

How the results depend on the processing

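All 5 median differences over the members kept their sign under the alternatives run. Of the counts of members called, 101 stayed within 1.5 times and 13 moved further. Many of the 101 are hairpin or interaction counts of 0 that stayed 0, which says little about stability. In shLUC the count of 26 became 15 with no filter on dim probes, and 10 to 15 without single shLUC arrays (10 to 31 over all arrays left out). In shROR2 the count of 36 became 2 with only the groups compared and 14 to 41 with single arrays left out. For the hairpin in basal cells the count of 0 became 2 with normexp on the median signal, 1 with the authors' deposited table and 1 with probes well above background on all 11 arrays. The cause was not tested. Of the named members, Ndufa6, Sdhd, Uqcrq, Cox7c, Cox7a2, Atp5c1 and Cox4i1 lost their shLUC calls with no filter on dim probes, and all those called in shROR2 but Ndufv3 lost their calls with only the groups compared. Members near 0 in shLUC changed sign: Ndufb6 to 0.0043 (mean of all probes), 0.0156 (slide as a block) and 0.0588 (cytosolic ribosomal scaling), Atp5md to 0.0243 (normexp) and 0.0575 (ribosomal scaling), and Cox7b to 0.0103 (ribosomal scaling). Without single arrays they ranged from -0.0254 to 0.0141 for Ndufb6, -0.0445 to 0.0463 for Atp5md, -0.1036 to 0.0084 for Cox7b and -0.2683 to 0.0173 for Cox6a2. With the replicate number as a block 18, 31, 0, 0 and 0 members were called in the 5 comparisons, and the block moved no count of members by over 1.5 times. In shLUC the count fell from 26 to 18. The labels do not say whether same-numbered samples are paired. The planned normexp on the mean signal was not run, because the mean signal was not among the columns used, and the fits on the median signal, on ribosomal scaling and on single slides were chosen after seeing the data. Dim probes limit Cox6a2, Ndufab1 and the 3 untested isoforms.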
